A study of Homo sapiens with 3 samples.

Results

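The genes described here are 10 enzymes that make serine, glycine, asparagine, proline and cysteine or pass on folate-bound one-carbon units: PHGDH, PSAT1, PSPH, SHMT1, SHMT2, MTHFD2, ASNS, PYCR1, CTH and CBS. They were taken by symbol, as every non-control probe on the array that carries one of the 10 gene names, which gave 18 probes for 10 of the 30982 gene names on the array. The set was selected on enzyme role with the OM, MB and NM signals of these same arrays already known, among them the low MB readings of most members, so its values are a description and no test is attached to them. All were measured in 1205Lu, a human melanoma cell line obtained as a mouse lung metastasis of WM793 xenograft cells.

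RNA from 3 populations of this line was hybridised with Cy3 label, 1 array each, on 1 slide. The original monolayer (OM) had been kept for 14 days in RPMI-1640 with 10% FCS. The melanoma bodies (MB), attached multicellular spheroids collected by detachment, had been kept for 14 days in hESC medium, a DMEM F-12 base in which KnockOut serum replacement made up 20% and which, per the methods, also held nonessential amino acids, L-glutamine and 2-mercaptoethanol. The new monolayer (NM) came from bodies of the same 14 days that then spent 10 days in RPMI-1640 with 10% FCS, with leftover bodies taken away before RNA isolation. Growth form and medium therefore changed together, and their parts in any difference cannot be told apart. Each population is a single culture and a single array, so no spread between cultures is known and no p-value is given. The melanocyte markers SOX10 and S100B were bright on all 3 arrays, MITF and PMEL were well above background, MLANA and DCT were dim, and TYR and TYRP1 were on no array well above background. Per array, 64.7% to 71.0% of the 41000 probes passed the scanner software's test for being well above background.

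Cells make serine from the glycolytic intermediate 3-phosphoglycerate in a short chain: PHGDH oxidises it, PSAT1 adds an amino group taken from glutamate, and PSPH removes the phosphate. SHMT1 in the cytosol and SHMT2 in mitochondria split serine into glycine and a folate-bound carbon unit, which MTHFD2 oxidises further in mitochondria. ASNS makes asparagine from aspartate and glutamine, PYCR1 completes proline synthesis in mitochondria, and CBS followed by CTH converts homocysteine and serine to cysteine. Several of these genes are known targets of ATF4, the transcription factor of the amino acid response, which cells engage when amino acids are short.

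The readout rests on 60-base probes, and the position of each probe decides which transcripts it can see. Sequences are shown for 4 of the 18 probes, the dimmer probes that read SHMT1, SHMT2, PYCR1 and CBS at another place than the brightest probe. Positions are those of the array annotation, build hg17. The SHMT1 probe shown lies at chr17:18177238-18177297 and the PYCR1 probe at chr17:77484474-77484533. The SHMT2 probe covers chr12:55914104-55914286, a span of 183 bases, and the CBS probe chr21:43350054-43351370, a span of 1317 bases, so that each of these 60-base probes bridges a gap in the genome and reads spliced RNA. All are in lower case with no base marked.
SHMT1: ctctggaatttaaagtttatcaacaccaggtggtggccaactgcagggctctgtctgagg
SHMT2: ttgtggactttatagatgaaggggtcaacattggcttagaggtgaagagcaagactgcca
PYCR1: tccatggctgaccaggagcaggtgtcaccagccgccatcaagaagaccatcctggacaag
CBS: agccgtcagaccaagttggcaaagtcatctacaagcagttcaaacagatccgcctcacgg

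Of the 10 enzymes, 9 read lower in MB than in OM and 9 read lower in MB than in NM, after each array was scaled to the mean of GAPDH, ACTB and HSP90AA1. SHMT1, the cytosolic serine hydroxymethyltransferase, was the exception in both comparisons. The 10 genes had a median log2 ratio of MB over OM of -1.64, where the median of all 22209 measured genes was 0.09 and 43.3% of genes lay below 0. For MB over NM the median was -2.52, beside 0.06 over 21921 genes, of which 46.8% lay below 0. In such bulk RNA, fewer cells with a transcript and less of it per cell cannot be told apart. These comparisons share the MB array, so they are not independent of each other. A gene counts as measured when it was well above background on at least 1 array of the pair, and it is represented by its brightest probe.

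A 2-fold difference was used for counting. In MB, 7 of the 10 read at least 2-fold lower than in OM, while 5.43% of all measured genes did so. Against NM the count was 8 of 10, beside 9.99% of all genes. At the 5-fold difference that the study itself used, with a signal over 100 arbitrary units (a.u.), PSAT1 alone was lower in MB than in OM, where the share over all genes was 0.554%. ASNS, PHGDH, PSAT1, MTHFD2, CTH and CBS were at least 5-fold lower in MB than in NM, where that share was 1.35%. Since the set was assembled with these signals known, the counts are not evidence that it stands apart from other genes.

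**Figure D1:**
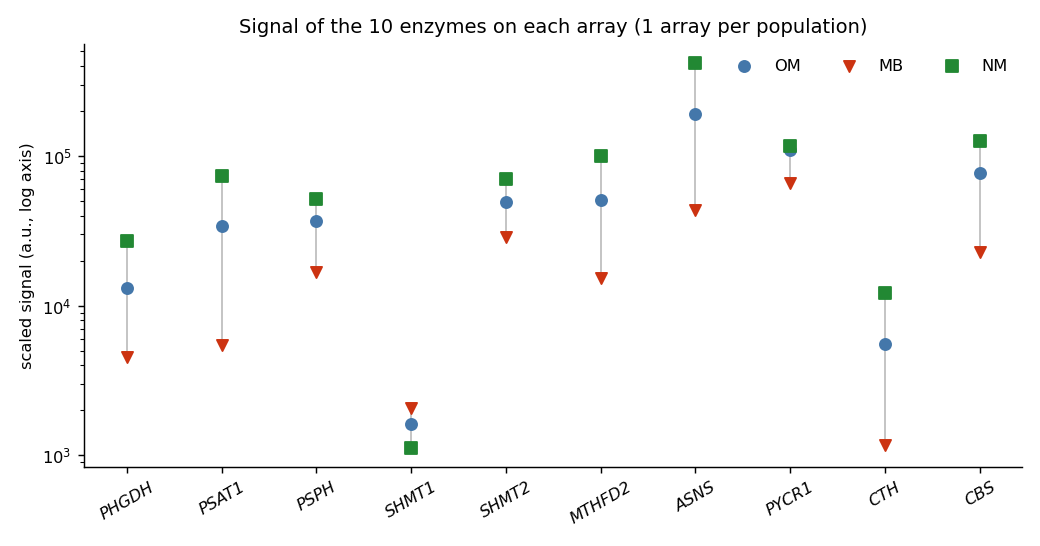
Scaled signal of each enzyme (brightest probe, a.u., log axis) on the OM, MB and NM arrays, with 1 point per array and a line joining the lowest to the highest. MB is the lowest point for 9 enzymes and the highest for SHMT1, and NM is the highest for the same 9. Heights of different genes come from different probes and cannot be compared.

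The error that can be measured is technical. Each of the 18 probes occupied 1 spot. Among probes printed in 10 spots and brighter than 1000 a.u., the SD of a single-spot log2 ratio was 0.0346 for MB over OM (146 probes), 0.0310 for MB over NM (143 probes) and 0.0360 for NM over OM (152 probes), which corresponds to about 1.02-fold. The scanner software assigned a broader error of 10% of the signal to each bright spot. All of the 18 probes except 1 SHMT1 probe were well above background on all 3 arrays, and no spot was saturated or marked as an outlier. Of the 54 values, 21 came from the low-voltage scan of the pair of scans that the software merges, scaled up to the other.

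The enzymes of all 3 serine synthesis steps read lower in MB than in either monolayer. PHGDH, which commits carbon to the pathway, gave 13167 a.u. in OM, 4437 a.u. in MB and 23608 a.u. in NM. Its scaled signal in OM was 2.90-fold and in NM 5.93-fold that in MB (log2 ratios of MB over each monolayer -1.54 and -2.57, given in this order throughout). PSAT1, the aminotransferase of the next step (chr9:78174332-78174391), gave 33916, 5367 and 64580 a.u. on OM, MB and NM. It showed the widest range of the 10 enzymes, with OM 6.18-fold and NM 13.4-fold above MB (log2 ratios -2.63 and -3.75). Only 0.932% of all measured genes had a lower MB over OM ratio than PSAT1, and 0.602% a lower MB over NM ratio.

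PSPH, the phosphatase that releases serine (chr7:55852995-55853054 for its brightest probe), gave 36621 a.u. in OM, 16483 a.u. in MB and 45356 a.u. in NM. The difference was narrower than for the enzymes before it, with OM 2.17-fold and NM 3.07-fold above MB. The log2 ratio of PSAT1 minus that of PSPH was -1.51 against OM and -2.13 against NM, where the technical SD of such a difference was 0.049 and 0.044. PSAT1 minus PHGDH gave -1.09 and -1.18. The steps of the pathway thus differed in size beyond the spread of replicate spots, while the spread between cultures is unknown.

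PSPH had 3 probes. The next brightest overlapped the brightest by 47 bases, with 3 bases differing between them, and gave 14494, 6515 and 18076 a.u. on OM, MB and NM (log2 ratios -1.12 and -1.63). The last gave 1035, 762 and 2711 a.u., with log2 ratios of -0.41 against OM and -1.99 against NM. This probe shares stretches of at least 20 bases with probes of 6 other gene names, so its signal cannot be assigned to PSPH alone. The brighter pair are near copies of each other in position and are not separate readings of the gene.

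The serine hydroxymethyltransferases of mitochondria and cytosol read in opposite directions. SHMT2, the mitochondrial serine hydroxymethyltransferase (chr12:55914612-55914671), gave 49042 a.u. in OM, 28050 a.u. in MB and 61915 a.u. in NM, so that OM was 1.71-fold and NM 2.46-fold above MB. The junction probe of SHMT2 shown above gave 25204, 13773 and 29335 a.u., and its log2 ratios of -0.84 and -1.25 were close to the -0.77 and -1.30 of the brighter probe. MTHFD2, the mitochondrial methylene-tetrahydrofolate dehydrogenase (chr2:74353640-74353699), differed more. It gave 51090 a.u. in OM, 15016 a.u. in MB and 88337 a.u. in NM, with OM 3.33-fold and NM 6.56-fold above MB.

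SHMT1 ran the other way. Its brightest probe (chr17:18172251-18172310) gave 1623 a.u. in OM, 2033 a.u. in MB and 985 a.u. in NM, a scaled difference of 1.28-fold from OM and 1.85-fold from NM, with MB the highest of the 3. The SHMT1 probe printed above gave 1433, 1603 and 1041 a.u. and the same direction, with log2 ratios of 0.19 and 0.47. The dim last probe (chr17:18192488-18192546) gave 81.6, 53.8 and 29.4 a.u., was not well above background in NM, and turned the direction against OM, at a log2 ratio of -0.57. The direction of SHMT1 against OM therefore depended on the probe.

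The log2 ratio of SHMT2 minus that of SHMT1 was -1.13 against OM and -2.19 against NM. MTHFD1, the cytosolic enzyme that carries the dehydrogenase step of MTHFD2 along with others, gave 23210, 25400 and 24150 a.u. on OM, MB and NM, and its log2 ratios were 0.16 and -0.08. MTHFD2 minus MTHFD1 gave -1.90 and -2.63. MTHFD1L, the mitochondrial formate-releasing enzyme, gave 5318, 3303 and 5308 a.u. with its brightest probe, at log2 ratios of -0.65 and -0.84. Its other 3 probes were lower as well, at log2 ratios of -1.86, -0.79 and -1.84 against OM and of -2.91, -1.09 and -2.46 against NM. For MTHFD1L the direction was shared by all 4 probes, and the size was not. MTHFD2L, the close relative of MTHFD2, was on no array well above background.

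**Figure D2:**
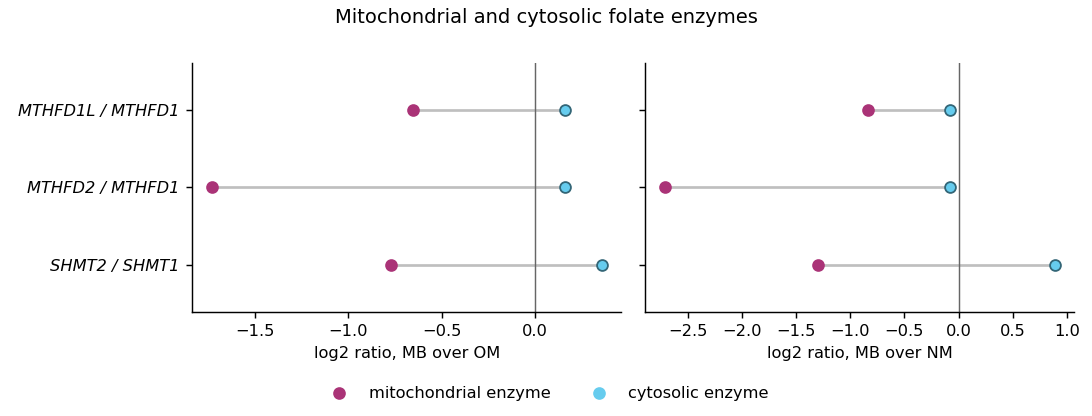
Log2 ratio of scaled signal for mitochondrial folate enzymes (purple) and their cytosolic counterparts (blue), MB over OM on the left and MB over NM on the right, brightest probe of each gene, 1 array per population. Each mitochondrial enzyme lies left of its cytosolic counterpart, and among these probes the gap is widest for MTHFD2 against MTHFD1, at -1.90 and -2.63. This ranking depends on the probe, since a dimmer MTHFD1L probe, not shown, read lower than MTHFD2, at -1.86 and -2.91.

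ASNS, asparagine synthetase, gave 191608 a.u. in OM, 42590 a.u. in MB and 366205 a.u. in NM with its main probe (chr7:97126112-97126171). OM was 4.40-fold and NM 9.58-fold above MB. The NM value was therefore the high end and the MB value the low end for this gene, with OM between them. Another, far dimmer ASNS probe lies 56675 bases away (chr7:97182787-97182846) and gave 72.2, 34.2 and 77.7 a.u., with log2 ratios of -1.04 and -1.34. Both probes read lowest on MB, and their log2 ratios were 1.09 and 1.92 apart. For NM over OM the main probe gave a log2 ratio of 1.12 and the dimmer one 0.29. The main probe shares a 20-base stretch with 1 other probe on the array, that of an unnamed transcript contig.

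Promoter letters were set beside these signals. RefSeq promoters (GRCh38.p14, from 250 bases before to 50 after the start) were found for 7 of the 10 genes, in 10 entries, and were searched on both strands for TGATGNAA, the core of the C/EBP-ATF composite element that ATF4 binds. It occurred in 1 of the 10 entries, that of ASNS, as TGATGAAA starting 68 bases before the start. Over 35116 promoters of the same length, 3.62% held the motif. The stretch around it is chr7:97872429-97872516 (GRCh38.p14), printed on the minus strand, 5′ to 3′ along the gene, with the match in capitals. A match is a description of letters, not of binding.
ASNS promoter: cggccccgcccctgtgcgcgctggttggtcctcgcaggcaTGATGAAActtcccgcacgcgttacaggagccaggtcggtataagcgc

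PYCR1, which reduces pyrroline-5-carboxylate to proline (chr17:77483622-77483681), differed least among the enzymes that were lower in MB. It gave 109200 a.u. in OM, 64438 a.u. in MB and 102821 a.u. in NM, with OM 1.66-fold and NM 1.78-fold above MB. The PYCR1 probe printed above gave 5020, 3026 and 4306 a.u. and log2 ratios of -0.70 and -0.67, beside -0.73 and -0.83 for the brighter probe. PYCR1 stayed under the 2-fold count in both comparisons, though spike-in scaling took its log2 ratio against OM to -1.03. PYCR3, a cytosolic reductase, gave 9900, 11310 and 6643 a.u. (0.23 and 0.61). ALDH18A1, which makes the precursor of pyrroline-5-carboxylate upstream of the reductases, gave 8909, 12790 and 5723 a.u. and was 1.47-fold and 2.01-fold higher in MB than in OM and NM. Enzymes of the same short pathway thus read in opposite directions.

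The transsulfuration enzymes both read lowest on MB. CTH, cystathionine gamma-lyase (chr1:70617062-70617121), gave 5519 a.u. in OM, 1145 a.u. in MB and 10703 a.u. in NM. Its OM signal was 4.71-fold and its NM signal 10.4-fold that of MB, next to PSAT1 in both comparisons. CBS, cystathionine beta-synthase (chr21:43346388-43346447), gave 76649 a.u. in OM, 22310 a.u. in MB and 111374 a.u. in NM, with OM 3.36-fold and NM 5.56-fold above MB. The junction probe of CBS gave 8908, 2242 and 11446 a.u., with OM 3.89-fold and NM 5.69-fold above MB. All values of the bright CBS probe came from the low-voltage scan and all values of the junction probe from the other, and both gave folds of like size. This does not cover ratios that join both scans. The brightest probes of PSAT1, PSPH and MTHFD2 had OM and NM from the low-voltage scan and MB from the other, and PHGDH had NM alone from it.

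**Figure D3:**
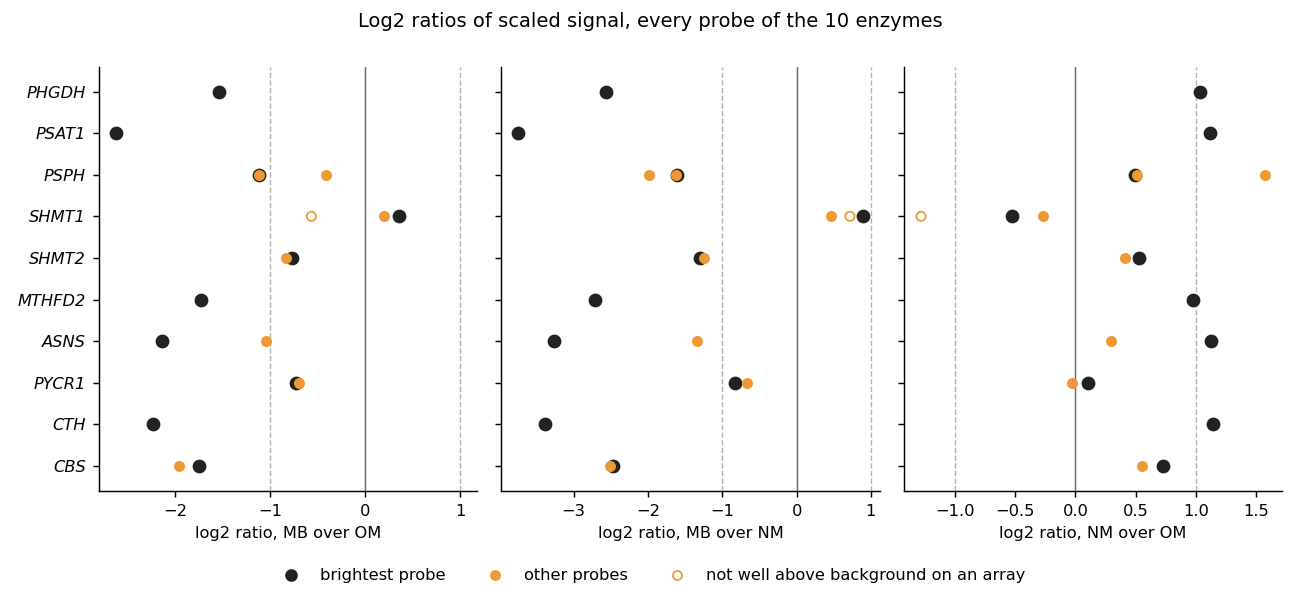
Log2 ratio of scaled signal for every probe of the 10 enzymes, for MB over OM, MB over NM and NM over OM from left to right, 1 array per population. Black points are the brightest probe of a gene, orange points its other probes, the open point a probe not well above background on 1 array, and dashed lines mark a 2-fold difference. Probes of SHMT2, PYCR1 and CBS lie close together, while those of ASNS, PSPH and SHMT1 spread apart.

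From the lowest to the highest MB over OM ratio the enzymes ran PSAT1, CTH, ASNS, CBS, MTHFD2, PHGDH, PSPH, SHMT2, PYCR1 and SHMT1. CBS and MTHFD2, 0.014 apart on the log2 scale, and SHMT2 and PYCR1, 0.045 apart, could not be ordered, since each gap was under the technical SD of a difference. In MB over NM the first 3 and last 4 places were the same, and every gap between neighbours exceeded the technical SD. The technical SD is narrower than the error of 10% of the signal that the scanner software assigned to each bright spot. That broader error was not applied to these gaps. The technical SD also carries no spread between cultures and none between probes of a gene. The order therefore belongs to these 3 RNA samples and to the brightest probes. The dimmer ASNS probe, at -1.04 and -1.34, would move ASNS above PSPH, at -1.12 and -1.62. The last PSPH probe, not assignable to PSPH alone, would move PSPH above PYCR1 against OM. Other probes of SHMT1, SHMT2, PYCR1 and CBS, taken singly, would leave each in its place. PHGDH, PSAT1, MTHFD2 and CTH have 1 probe each, so their spread between probes is unknown.

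Between the monolayers, 9 of the 10 enzymes read higher in NM than in OM, the exception again being SHMT1, and the median log2 ratio was 0.85, beside 0.05 over 21591 genes, of which 54.1% lay above 0. ASNS, PHGDH, PSAT1 and CTH were at least 2-fold higher in NM, a count of 4 beside 4.78% of all genes. Their NM over OM folds lay between 2.04 for PHGDH and 2.21 for CTH, and ASNS, PSAT1 and CTH could not be ordered. MTHFD2 followed at 1.97-fold, CBS at 1.66-fold, SHMT2 at 1.44-fold and PSPH at 1.41-fold. SHMT2 and PSPH, 0.028 apart on the log2 scale, could not be ordered either. The last PSPH probe, not assignable to PSPH alone, gave a log2 ratio of 1.58. PYCR1 was 1.07-fold higher with its bright probe and at a log2 ratio of -0.03 with the other, so its direction was not settled. The count of 4 depended on the scaling of the arrays, with 0 remaining without scaling and 0 after quantile normalization. The place of ASNS in it also rested on its main probe.

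Enzymes around the 10 were taken from lists of the same pathways. Without the 10 members, the 6 lists hold 67 genes, of which 58 were measured in MB over OM. Of these, 5 read at least 2-fold lower and 3 at least 2-fold higher in MB than OM, and their median log2 ratio was 0.13. In MB over NM, 7 read lower and 4 higher at 2-fold, with a median of 0.11. These medians were near those of all genes, while the medians of the 10 members were -1.64 and -2.52. Because members and lists were chosen with these signals known, this contrast is not evidence that the 10 stand apart from their pathways.

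Among the other serine and glycine genes, MB was 2-fold below OM for 1 of 9 and 2-fold below NM for 2. SDSL, a serine dehydratase-like enzyme, gave 3633, 1290 and 3441 a.u. on OM, MB and NM, with OM 2.75-fold and NM 2.97-fold above MB. In the mitochondrial folate list 1 of 4 was 2-fold lower in each comparison, counted by the brightest probe. For MTHFD1L this depended on the probe. It passed 2-fold against OM with probes at -1.86 and -1.84, and against NM with every probe but the brightest. The mitochondrial folate carrier SLC25A32, at log2 ratios of 0.19 and 0.29, and the formyltransferase MTFMT, at 0.25 and 0.27, named after their values were seen, read slightly higher in MB. The gene past 2-fold with its brightest probe was ALDH1L2, the mitochondrial formyl-tetrahydrofolate dehydrogenase. It gave 4192, 1353 and 5899 a.u., with OM 3.03-fold and NM 4.86-fold above MB. Its dimmer probe gave log2 ratios of -1.89 and -3.04, so both of its probes read lowest on MB.

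The cytosolic folate list held no gene at 2-fold lower in MB among 13 measured, with median log2 ratios of 0.21 against OM and 0.19 against NM. In it, 2 genes were 2-fold higher than in OM and 1 was than in NM. SLC46A1, the proton-coupled folate transporter, named HCP1 on the array, gave 221.7, 539.4 and 129.2 a.u., and was 2.49-fold and 3.75-fold higher in MB than in OM and NM. All 3 of its probes read highest on MB, with log2 ratios against OM between 1.11 and 1.32. SHMT1 also read highest on MB by its brightest probe, though its direction against OM depended on the probe. Reading highest on MB was not particular to SLC46A1 and SHMT1, since other genes of the list did so too. Of the 13 genes measured besides SHMT1, 2 read lower in MB than in OM and 6 lower than in NM, by any amount.

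Of the asparagine, aspartate and glutamate genes, 3 of 12 were 2-fold lower in MB in each comparison, and GOT1 and GPT2 were so in both. GOT1, the cytosolic aspartate aminotransferase, gave 17540, 7503 and 26070 a.u., with OM 2.29-fold and NM 3.87-fold above MB. Its log2 ratio minus that of GOT2, the mitochondrial form, was -1.30 and -2.35. GPT2, the mitochondrial alanine aminotransferase, gave 3773, 1472 and 4204 a.u., with OM 2.50-fold and NM 3.18-fold above MB. GPT2 minus GPT, the cytosolic form, gave -1.25 and -1.13. For these aminotransferases the lower form was cytosolic in the aspartate pair and mitochondrial in the alanine pair.

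In the proline and ornithine list MB was 2-fold below OM for none of 7 measured genes and 2-fold below NM for 1. In the methionine, transsulfuration and glutathione list none of 13 was 2-fold lower in either comparison, so CTH and CBS were the only measured genes of that pathway list past the threshold in the low direction. BHMT, which remethylates homocysteine with betaine, gave 111.4 a.u. on MB and was not well above background in OM and NM, at 11.2 and 8.63 a.u. MB was at least 5.45-fold higher than OM, and at least 3.43-fold higher than NM, where the dim array was set to its lowest signal well above background. The other BHMT probe was on no array well above background, so this rests on 1 spot.

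Chosen after their values were seen, these list genes were past 2-fold in a single comparison. Against OM, ASRGL1, an asparaginase, was lower in MB with its brightest probe (log2 ratio -1.04), while its other 3 probes gave 0.04, -1.16 and -0.10, so this depended on the probe. Against NM, AMT of the glycine cleavage system (-1.42), BCAT2, a branched-chain aminotransferase (-1.07), and ARG2, a mitochondrial arginase (-1.49), were lower, and CSAD of taurine synthesis was higher (1.25), as was ALDH18A1 (1.00). ARG2 differed from the enzymes above in that OM read lowest, at 1285 a.u., with 2202 a.u. in MB and 5536 a.u. in NM.

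**Figure D4:**
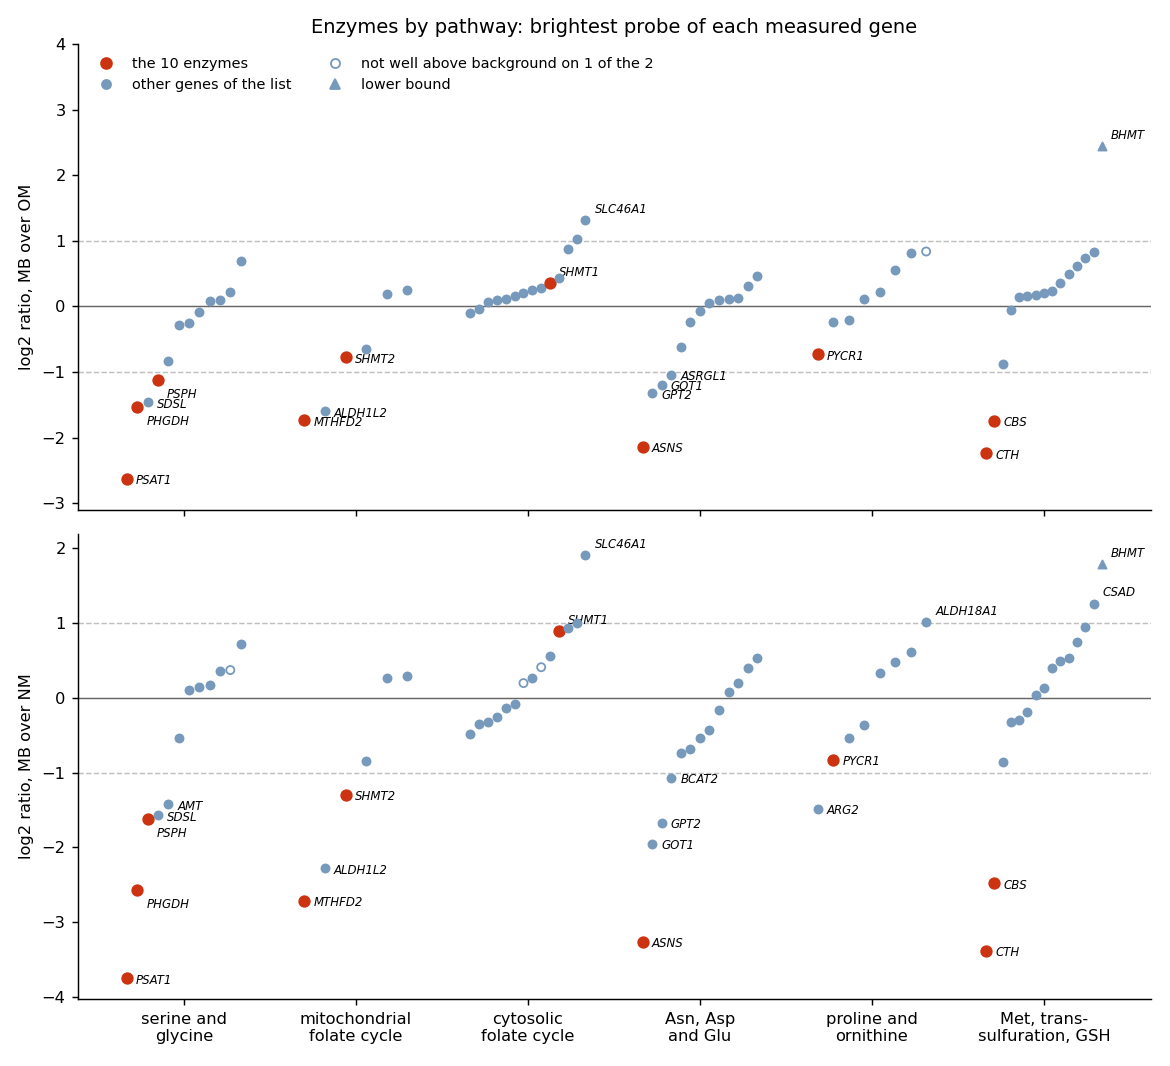
Log2 ratio of scaled signal for each measured gene of 6 pathway lists, MB over OM above and MB over NM below, brightest probe, genes sorted within a list. Red points are the 10 enzymes, blue points the other genes, the triangle a lower bound for BHMT, open points genes not well above background on 1 of the arrays compared, and dashed lines mark a 2-fold difference. Most blue points lie within 2-fold, while 7 red points in the upper panel and 8 in the lower lie beneath the lower dashed line. The red genes were picked with these signals known.

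ATF4 itself gave 210000, 71220 and 233000 a.u. on OM, MB and NM, with OM 2.88-fold and NM 3.65-fold above MB, and its other probe gave 3.47-fold and 4.10-fold. Of 8 regulators listed, 4 were at least 2-fold lower in MB in both comparisons, namely ATF4, ATF3, DDIT3 and TRIB3. Their NM over OM values were 1.26-fold for ATF4, 1.82-fold for ATF3, 3.54-fold for DDIT3 and 3.78-fold for TRIB3. The rest of the list did not share this. By the brightest probe MYC (0.90 and 0.20), EIF2AK3 (0.39 and 0.54) and EIF2AK4 (0.09 and 0.57) read higher in MB, and CEBPB gave -0.20 and -1.13. Of all measured genes, 5.43% were 2-fold lower in MB than in OM and 9.99% than in NM. The part of these regulators in the enzyme signals was not tested. Proliferation genes moved little beside them, with none of 20 at 2-fold in MB against OM, MKI67 higher against NM, and medians of 0.16 and -0.09.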

How the data were processed

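For each of the 3 arrays the authors deposited the spot intensity written by Feature Extraction (version 9.5.3.1 per the file headers), background subtracted, in arbitrary units and not scaled between arrays. The deposited series value table holds the same intensity values. Control and outlier spots were left out, spots of a probe averaged, and each array scaled to 3 housekeeping genes (GAPDH, ACTB, HSP90AA1, 10 spots each; arithmetic mean), after the study's methods, which name HSP90 without the gene, so that HSP90AA1 is a choice made here. A gene stands for the probe with the highest mean signal. With 1 array per group no test was run, and precision is limited by how few arrays there are. Named genes are the 10 members, MTHFD1, MTHFD1L, MTHFD2L, ALDH1L2, ALDH18A1, PYCR3, ATF4, and list genes past 2-fold in MB in the same direction against both other arrays with over 100 a.u.; GOT2 and GPT are added as paralogs. Some items that the rule or the counts cover are not reported here. Members, lists and rules were chosen with earlier results of these data known. Alternatives were other scalings (75th percentile, geometric mean, spike-in, quantile, none), background handling (normexp, offset 50, limma 3.58.1, or no subtraction), filters, probe choice, the value table and a 5-fold threshold. Promoters came from RefSeq. Protein sequences were not compared. Python 3.11.15, numpy 2.4.6, pandas 2.3.3 and R 4.3.3 were used.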

Additional observations from a re-analysis of the deposited data

How the results depend on the processing

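No paired analysis was possible because each population has 1 array. The median log2 ratio of the 10 enzymes stayed negative for MB over OM and MB over NM and positive for NM over OM in all alternatives run. Some of these could not move it. The brightest probes of all 10 passed every filter on dim signals, and the value table holds the same values. For MB over OM the median was -1.81 with the 75th percentile, -1.71 with quantile normalization, -1.94 with spike-in scaling (7 probes), -1.56 with the mean of all probes and -1.29 with the dimmest measured probe of each gene. For MB over NM these gave -2.61, -2.32, -2.69, -2.40 and -2.25, the geometric mean of the housekeeping genes -2.62 and no scaling -2.37. For NM over OM they gave 0.76, 0.57, 0.72, 0.79 and 0.76, then 0.92 and 0.66. Spike-in scaling moved the median of all genes for MB over OM to -0.22. Scaling by a single factor shifts all genes alike. The distance of the 10 enzymes from the all-gene median for MB over OM, -1.72, was therefore fixed under such scalings. Quantile normalization, which is not of this kind, gave -1.69. The count 2-fold lower in MB than OM fell from 7 to 1 at 5-fold and was 6 with the mean or the dimmest of the probes, and 9 with spike-in scaling, which added SHMT2 (-1.08) and PYCR1 (-1.03). The count higher in NM than OM fell from 4 to 0 at 5-fold, 0 without scaling, 0 with quantile normalization and 1 with spike-in scaling. SHMT1 in MB over OM changed sign with the dimmest probe and with the mean of probes, and PYCR1 in NM over OM with the dimmest probe, without scaling, with quantile normalization and with spike-in scaling. ASNS in NM over OM dropped under 2-fold with the dimmest probe (0.29) and with the mean of probes, and PSPH in MB over OM dropped under 2-fold with the dimmest probe (-0.41) and with the mean of probes. The cause of these shifts was not tested. With 1 spot per probe and 1 culture per population, a difference between cultures has no measured error.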
